A study of Mus musculus with 6 samples.

Results

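The control cultures of a CRISPR activation experiment were described: primary mouse neurons transduced with Ctrl-dCas9A, the construct whose guide sgLacZ is directed at a bacterial gene that mouse cells lack. They make up 3 of the 6 libraries of the series and were chosen by the treatment given in the sample labels. Of the 50508 gene symbols in each file, 8199 had a mean value of at least 10 over the 3 libraries, with Gm42418 left out, and these are the genes described. Values are on a per-million scale, the whole numbers of a library summing to just under 1000000. The question was what a baseline culture expresses, how closely the 3 libraries repeat each other, and where replicate 3 departs from replicates 1 and 2.

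All 3 cultures carried the label genotype control and the treatment sgLacZ. The neurons were taken from newborn wild-type mouse pups (strain C57Bl/6J) and received lentivirus on the day after plating. The construct carries a nuclease-dead Cas9 fused to the activator VP160 under a ubiquitous Ef1alpha promoter. The cultures are thus wild-type cells given the activator construct without a mouse target chosen for it, not untreated neurons. Expression of the activator was not examined here. The labels name hippocampus and the methods name cortex, and the culture age differs between passages of the methods. The study's design statement speaks in general of independent repetitions, but neither source ties these libraries to separate cultures, so the spread given here is that between libraries and may be technical. With 1 group, no test was made.

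Neurons of newborn mice leave the cell cycle before or soon after plating, extend axons and dendrites and then form synapses. Their RNA is rich in tubulins and in microtubule-binding and growth-cone proteins during extension, and synaptic vesicle proteins and ion channels build up later. Glia divide in the same dish unless they are suppressed. Libraries of the QuantSeq 3' type read the end of each polyadenylated RNA, so a value follows the number of transcript ends and was not divided by length. A gene whose last bases are repeated elsewhere in the genome can lose its reads to a filter on ambiguous alignments.

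The mitochondrial genes are given first, with the sequences concerned. Of the 15 rRNA and protein genes of mitochondrial DNA, 6 were listed at 0 in all 3 libraries: mt-Co2, mt-Atp8, mt-Atp6, mt-Co3, mt-Nd3 and mt-Nd4l. These encode subunits of cytochrome oxidase, ATP synthase and complex I that every respiring cell uses, so a 0 in the files is not taken as an absence of RNA. In the reference genome NCBIM37 (mm9), chr1:24618374-24623027 on the minus strand repeats chrM:6390-11042 with 99.936% identity over 4654 aligned bases. The 6 genes lie wholly inside the repeated stretch. The last 60 bases of mt-Co3 (chrM:9331-9390, plus strand) and the matching stretch of chromosome 1 (chr1:24620027-24620086, minus strand) are shown because they differ at 0 positions, so that no base within them tells one from the other. The last 60 bases of mt-Cytb (chrM:15229-15288, plus strand) are shown for contrast. Beside them is their counterpart in the longest nuclear match that covers them (chr4:79650977-79651036, plus strand), with the 5 mismatched bases in capitals. Whether a shorter nuclear match has fewer mismatches was not examined.
mt-Co3, mitochondrial genome: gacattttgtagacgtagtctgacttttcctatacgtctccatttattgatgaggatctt
mt-Co3, chromosome 1: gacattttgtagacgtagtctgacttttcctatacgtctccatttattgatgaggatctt
mt-Cytb, mitochondrial genome: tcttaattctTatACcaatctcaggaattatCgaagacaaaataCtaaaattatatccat
mt-Cytb, chromosome 4: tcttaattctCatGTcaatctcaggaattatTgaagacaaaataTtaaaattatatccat

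The genes outside the repeated stretch had values in every library. The mt-Rnr2 gene, which encodes the large mitochondrial rRNA, had 15484, 15001 and 12842 in replicates 1, 2 and 3, and mt-Rnr1, the small rRNA, had 6849, 6543 and 6737. The value of mt-Cytb, a complex III subunit, was 1455, 1301 and 1234, and that of mt-Nd1 was 1133, 1009 and 1006. The mt-Co1 gene, whose end lies inside the stretch while its start does not, had only 218, 176 and 162. The mt-Nd4 gene, whose start lies inside the stretch and whose end does not, had 1248, 1023 and 2726, so that replicate 3 stood apart. The lowest protein gene outside was mt-Nd6, the single one transcribed from the other strand, at 10, 12 and 11. The alignment settings were not given in the sources used here, and whether a filter on ambiguous alignments set these values was not tested.

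**Figure D1:**
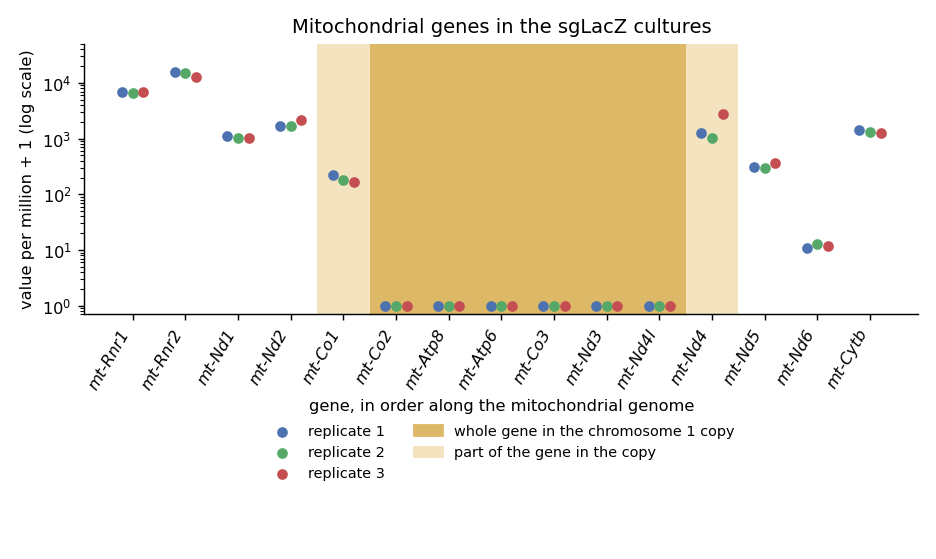
Per-million value plus 1 on a log scale (y) for the mitochondrial rRNA and protein genes in their order along the mitochondrial genome (x), with 1 point per sgLacZ library. The 6 genes on dark shading lie wholly inside the copy on chromosome 1 and are listed at 0 in all 3 libraries, mt-Co1 and mt-Nd4 on light shading lie there in part, and mt-Nd4 is higher in replicate 3 (2726) than in replicates 1 and 2 (1248 and 1023).

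Several nuclear genes used as references in other assays were also low. Gapdh, the glycolytic enzyme, had 17, 17 and 9, Ppia, a prolyl isomerase, had 14, 9 and 11, Actg1, the gamma actin of the cytoskeleton, had 10, 6 and 7, and Pgk1, also of glycolysis, had 2, 2 and 1. Tbp, a general transcription factor (16, 16 and 10), and Gusb, a lysosomal enzyme (5, 3 and 5), were low as well. By contrast, Actb, beta actin, had 8238, 8194 and 8022. The last 300 bases of the transcript were searched for other loci in NCBIM37 with at least 95% identity over at least 80% of their length, and Gapdh had 36, Ppia 19, Actg1 5, Pgk1 3 and Tbp, Gusb and Actb 0. Of the 18 reference genes, the 11 with 0 other loci had a median mean value of 99.7, the 4 with 1 to 4 had 13.0, and the 3 with 5 or more had 11.3. The ribosomal protein genes showed the same order, with medians of 319 for 32 genes, 188 for 20 genes and 121 for 29 genes. Not every gene with copies was low, since Rps12, of the small ribosomal subunit, had 1020, 1031 and 1220 with 20 other loci, and Rpl24, of the large subunit, was listed at 0 in all 3 libraries with 0. The order also held for translation factors (224 with 0 other loci, 126 with 1 to 4), proteasome genes (174 and 83.2) and chaperones. It did not hold throughout in oxidative phosphorylation (127, 130 and 4.67) or glycolysis (40.3, 2.67 and 14.3). Over the 732 list genes searched, the medians were 40.5, 91.7 and 89.8. Ribosomal protein genes were 29 of the 34 with 5 or more, so the pooled medians cannot show whether the order held within lists. Whether copies set these levels was not tested, and the levels of genes with near-identical copies are taken as uncertain.

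The highest values after Gm42418 belonged to genes of the growing neuronal cytoskeleton. Tubb2b, a beta tubulin of immature neurons, had 18462, 21613 and 19524 (19866 ± 1603, SD, n = 3). Tuba1a, its alpha tubulin partner, had 11263, 10840 and 11492 (11198 ± 331). Each of these tubulin genes had 1 other locus by the search above, so their levels carry the same uncertainty. The microtubule-binding gene Mapt, which encodes tau, varied little, with 3808, 3847 and 3870 (3842 ± 31.3). Map1b, another microtubule-binding gene, had 2030, 2477 and 2881, and Basp1, of the growth cone membrane, had 2867, 2611 and 2508. The tubulin Tubb5 was lowest in replicate 3, with 3827, 3489 and 2490. The 27 cytoskeleton genes, 26 of them described, summed to 61310, 63514 and 62047, of which Tubb2b and Tuba1a were the largest parts.

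Other genes among the highest were regulators, a chaperone and a noncoding RNA. Sox11, a transcription factor of newly formed neurons, had 3728, 3806 and 3413, and Tcf4, a basic helix-loop-helix factor, had 2862, 2760 and 2650. Both kept their libraries close together. Hsp90ab1, a cytosolic chaperone, had 5168, 5428 and 8366, and Malat1, a nuclear long noncoding RNA, had 2904, 1545 and 4634. Replicate 3 was the highest in both, with replicates 1 and 2 close together for Hsp90ab1 and apart for Malat1.

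**Figure D2:**
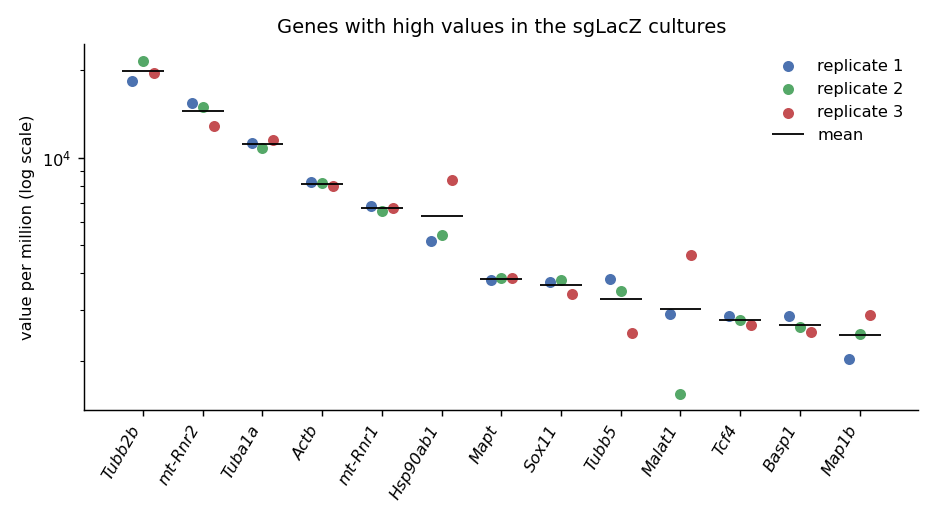
Per-million value on a log scale (y) of 13 of the genes with the highest means (x), with 1 point per sgLacZ library and a bar at the mean. Tubb2b leads with a mean of 19866, the 3 points of Mapt and Actb nearly coincide, and replicate 3 is the highest point of Hsp90ab1 and Malat1.

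The level of a typical gene was far below these. The median of the 8199 means was 38.0, the upper quartile was 84.3, and 60 genes reached 1000. The 100 highest genes held 24.8 ± 0.772% (SD, n = 3) of the summed value without Gm42418. Gm42418, a predicted gene whose locus overlaps a ribosomal RNA unit, held 19.1, 19.5 and 16.3% of replicates 1, 2 and 3, so it was lowest in replicate 3. Kcna1, the Kv1.1 potassium channel gene that the series was designed around (chr6:126586481-126595819, minus strand, NCBIM37), had 16, 16 and 16, rank 6776 of those described. The totals of the files were 999443, 999284 and 999047.

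Markers fixed for the cell types that such a dish could hold were set beside the label of primary neurons. Of 22 pan-neuronal genes 21 were described, and the list summed to 18273, 18159 and 19178. Stmn2, a growth-cone protein, had 1810, 1756 and 1924, Gap43, of the same compartment, had 1637, 1563 and 1953, and Tubb3, neuronal beta tubulin, had 1862, 1752 and 2605. Nefh, the heavy neurofilament of mature axons, had 5, 4 and 5. The genes of early neurons stood far above Nefh, and no list of another cell type went against the label of neurons as cells of the dish.

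Both main neuron classes were present. Of the glutamatergic list, 11 of 13 genes were described, led by Neurod2 (558, 560 and 680), Camk2b (602, 597 and 435) and Neurod6 (512, 484 and 471). Neurod2 and Neurod6 encode transcription factors and Camk2b a kinase. The vesicular glutamate transporter Slc17a7 had 33, 29 and 41. Of the GABAergic list, 16 of 20 were described, among them the peptide gene Sst (135, 123 and 114) and the GABA-synthesizing enzymes Gad1 (26, 31 and 21) and Gad2 (14, 13 and 26). Pvalb, a marker of a late-maturing interneuron class, was listed at 0 in all 3 libraries. In bulk RNA, fewer cells of a type and less RNA per cell cannot be told apart.

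Genes of hippocampal fields and of cortical layers were both found, and they did not single out one region. Zbtb20, a factor of hippocampal and glial cells, had 1359, 1441 and 1358, Prox1, of dentate granule cells and some interneurons, had 146, 160 and 107, and 11 of 18 hippocampal genes were described. Lmo4, a cortical transcription cofactor, had 752, 605 and 550, Bcl11b, of deep-layer and hippocampal neurons, had 292, 279 and 224, and 15 of 19 cortical genes were described. Prox1, Bcl11b and other members are expressed in both regions, so the labels' hippocampus and the methods' cortex cannot be told apart from them.

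Astrocyte genes were well represented, and those of oligodendrocytes, microglia, ependyma and vessels were not. Of 24 astrocyte genes, 21 were described, and the list summed to 3117, 3011 and 2998. The glutamate transporter Slc1a3 had 269, 270 and 201, Slc1a2 had 209, 218 and 226, and Gfap, the astrocyte filament, had 63, 45 and 57. Of the oligodendrocyte lineage, Olig1 (59, 49 and 34) and Olig2 (19, 20 and 16) passed, and the myelin genes Mag, Mog and Mobp were listed at 0 in every library. None of the 18 microglial genes and none of the 13 ependymal genes had a mean of 10. Their sums were 53, 39 and 48 for microglia and 36, 37 and 34 for ependyma, and the microglial markers P2ry12 and Tmem119 were listed at 0 in every library. Among 23 vascular and meningeal genes only Sparc, a matrix protein that astrocytes also make, passed, with 234, 217 and 277. Cdh5, of endothelium, was listed at 0 in all 3 libraries.

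Progenitor genes were mostly described, and cell-cycle genes were lower. Of 19 radial glia and progenitor genes 17 were described, and Sox11, Sox4 (1386, 1428 and 1192) and Dbi (1301, 1224 and 1204) were the highest, all of which young neurons or astrocytes also express. The median mean of those described was 128. Of 30 cell-cycle genes 16 were described with a median of 16.2, led by the cyclin Ccnd2 (823, 803 and 909). Mki67, the proliferation marker, had 4, 7 and 5. Both Xist, expressed from the inactive X of females (429, 387 and 348), and the Y-linked Ddx3y (31, 36 and 34) had values in every library.

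Genes of synaptic release, receptors and channels were present at moderate levels. Syt4, a synaptotagmin of dense-core vesicles, had 861, 817 and 869, Syt1, the calcium sensor of fast release, had 388, 408 and 399, and 25 of 27 release genes were described with a median coefficient of variation (CV, the SD over the mean, n = 3) of 7.62%. Grin2b, the NMDA receptor subunit of young neurons, had 400, 517 and 445, and the scaffold Dlg4 had 338, 374 and 276. Of 14 GABA-A receptor genes 10 were described, led by Gabra2 (503, 511 and 534). Of 40 potassium channel genes 21 were described, among them Kcnd2, an A-type channel, with 108, 106 and 124. Kcna3, Kcna5 and Kcnk9 were listed at 0 in all 3 libraries. Of 28 activity-regulated genes 13 were described. The early-response genes Fos (8, 6 and 6), Arc (1, 0 and 0) and Npas4 (2, 6 and 4) were below a mean of 10, while Nr4a3 (225, 226 and 147), Ier5 (183, 201 and 167), Fosl2 (96, 103 and 99) and Jun (97, 94 and 98) were the highest.

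Over all genes the 3 libraries repeated each other with a median CV of 15.3%. The quartiles were 9.31 and 22.9%, 2295 genes (28.0%) lay under 10% and 66 (0.805%) over 50%. Spread fell with level: the median CV was 19.1% for the 3367 genes from 10 to 30, 14.0% for 3119 genes to 100, 11.5% for 1291 genes to 300, 10.8% for 362 genes to 1000 and 9.32% for the 60 genes above. The most even genes with a mean of at least 100 were Ina, a neuronal intermediate filament, with 353, 353 and 355, Akap11, an anchor of protein kinase A, with 178, 179 and 180, Ski, a transcription cofactor, with 163, 162 and 161, Trim2, a ubiquitin ligase, with 512, 505 and 507, and Lingo1, of the axon surface, with 133, 134 and 132. The least even at that level were Nelfcd, Hdac7, Dync1h1, Oaz2 and Lrpprc, and in all of them replicate 3 was the high library.

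**Figure D3:**
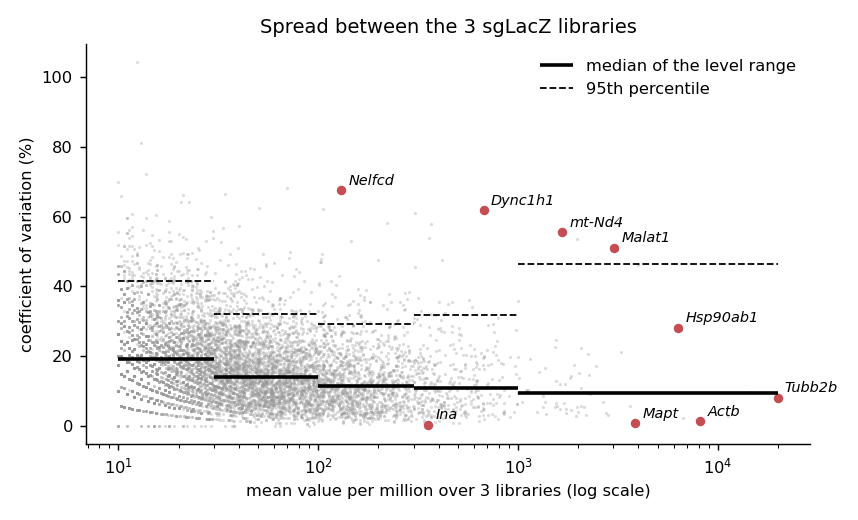
CV over the 3 sgLacZ libraries in percent (y) against the mean per-million value on a log scale (x), with 1 point per gene, the median of each level range as a solid line and its 95th percentile dashed. The median drops from 19.1% to 9.32% with level, while the 95th percentile is highest, at 46.4%, in the top range that holds Malat1 and mt-Nd4.

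Replicates 1 and 2 were the closest pair. The SD over genes of the difference in log2(value + 1) was 0.30 between replicates 1 and 2, 0.46 between 1 and 3 and 0.42 between 2 and 3. A 2-fold difference separated 56 genes (0.683%) in the first pair, 295 (3.60%) in the second and 210 (2.56%) in the third. Of the 8156 genes with a single closest pair, replicate 3 was the library outside it in 4126 (50.6%), replicate 1 in 2233 (27.4%) and replicate 2 in 1797 (22.0%).

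The departure of a library was taken as its log2(value + 1) minus the mean of the other 2, and a gene was counted when the departure reached 1 in either direction, that is, 2-fold. On that scale the change of low genes is understated. Replicate 3 was at least 2-fold higher in 65 genes (0.793%) and lower in 94 (1.15%). Replicate 1 was higher in 31 (0.378%) and lower in 16 (0.195%), and replicate 2 was higher in 4 (0.0488%) and lower in 23 (0.281%). The share of higher against lower genes depended on scaling. With Gm42418 left out and the rest rescaled, replicate 3 was higher in 56 and lower in 164 and replicate 2 was higher in 11 and lower in 33, and with median-of-ratios factors replicate 1 was higher in 20 and lower in 21. The SD of the departure was 0.41 in replicate 3, 0.32 in replicate 1 and 0.28 in replicate 2.

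**Figure D4:**
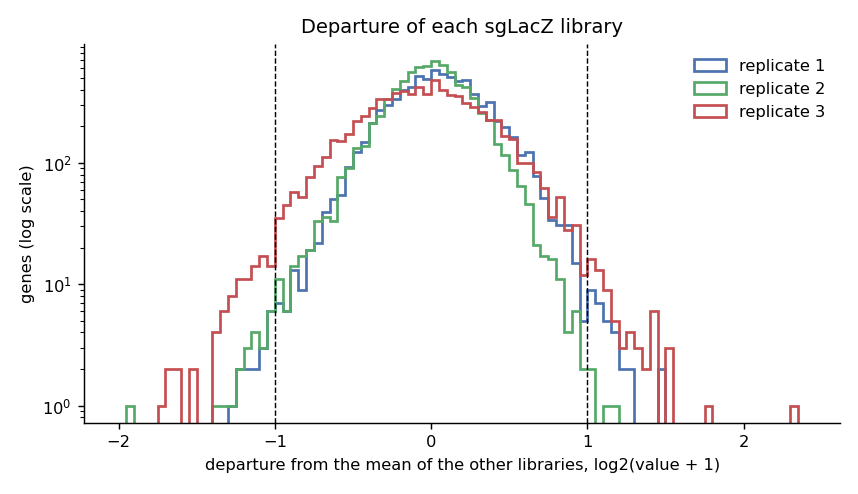
Number of genes on a log scale (y) by departure of a library from the mean of the other libraries on the log2(value + 1) scale (x), with 1 outline per sgLacZ library and dashed lines at a 2-fold departure. The outline of replicate 3 is the widest (SD 0.41, against 0.32 and 0.28), with 65 genes beyond the right line and 94 beyond the left.

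Among the 10 genes with the highest departures in replicate 3 by the naming rule was Dync1h1, the heavy chain of the dynein motor that carries cargo back along axons (chr12:111839662-111905155, plus strand), with 387, 482 and 1151, a departure of 1.41. Nelfcd, a subunit of the complex that pauses RNA polymerase II, had 79, 80 and 232 (1.53). Hdac7, a class IIa histone deacetylase, had 65, 71 and 182 (1.41). The naming rule took genes whose replicates 1 and 2 lay close together and whose replicate 3 stood highest above them, so both traits follow from the choice.

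Others of that kind were Cyb5r1, a cytochrome b5 reductase, with 40, 45 and 125, and Oaz2, an antizyme that limits polyamine synthesis, with 193, 200 and 517. The synaptic scaffold gene Ppfia4 had 12, 14 and 37, the ephrin receptor gene Ephb3 had 29, 36 and 87, and Shkbp1 had 13, 13 and 36. Lrpprc, which stabilizes mitochondrial mRNA, had 141, 152 and 368. Among the 60 genes with a mean of at least 1000, those at least 2-fold higher in replicate 3 included Malat1, Meg3 and mt-Nd4, and no gene was 2-fold lower. The 2 largest departures of all, in Gm42979 (7, 3 and 27) and RP23-361B11.3 (12, 3 and 24), were seen in genes whose replicates 1 and 2 also differed.

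The gene of higher level with the largest departure below 0 in replicate 3 was Gnb2, a beta subunit of heterotrimeric G proteins (chr5:137969355-137974738, minus strand), with 568, 384 and 145, a departure of -1.68. Txnip, a thioredoxin-binding protein that responds to glucose, had 13, 18 and 4 (-1.71), and Rgcc, a cell-cycle regulator, had 15, 14 and 4 (-1.63). Cd44, a hyaluronan receptor of astrocytes and their precursors, had 30, 26 and 10, and Ndufa4, a subunit of cytochrome oxidase, had 74, 65 and 26. Igip (15, 15 and 4), Ccdc22 (17, 12 and 4), Ccdc12 (20, 18 and 6) and Btbd2 (20, 15 and 6) sat near the lower bound of the genes described. Of the 94 genes at least 2-fold lower, 66 had a mean between 10 and 30, as had 34 of the 65 higher genes and 3367 of all 8199 (41.1%).

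Fewer genes of higher level departed in replicates 1 and 2. With a mean of at least 50, replicate 1 was 2-fold higher in Gnb2 and Hopx and lower in Spr (46, 77 and 116), and replicate 2 was 2-fold lower in Malat1 and Mirg, whose values are given with their lists. Among genes whose other libraries differed by less than 0.6 on the log2 scale, the highest of replicate 1 were Gm23935 (60, 23 and 19), Tmco3 (18, 7 and 5) and Slc35f5 (23, 10 and 8), and the lowest were D130043K22Rik (7, 16 and 21), Isoc2a (9, 19 and 27) and Gcat (6, 18 and 13). Under the same limit the highest of replicate 2 were Alg8 (7, 18 and 10), Med11 (8, 17 and 8) and Coq9 (9, 16 and 7), and the lowest were Tmem191c (25, 11 and 34), Rps6kb2 (13, 6 and 19) and Mink1 (12, 5 and 14). No gene chosen under that limit had a mean above 34.0 in these libraries, and the 3 highest of replicate 3 under it, Gm12504 (7, 9 and 25), Cyb5r1 and Nelfcd, had means of 13.7, 70.0 and 130.

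Among the gene lists, that of brain long noncoding RNAs held the most genes at least 2-fold higher in replicate 3, 4 of the 16 described. These were Meg3 (1612, 1131 and 3150), Malat1 (2904, 1545 and 4634), Snhg11 (16, 13 and 34) and Mirg (58, 33 and 89). Over all genes that share was the 0.793% given above. The list's median departure was 0.21 in replicate 3, 0.09 in replicate 1 and -0.26 in replicate 2, and over all genes the median of replicate 3 was -0.04. Without replicate 1 the median of replicate 3 was 0.42 and without replicate 2 it was 0.12, and against replicate 1 alone only Snhg11 of these 4 was at least 2-fold higher. Replicate 2 was the lowest library and replicate 3 the highest for Meg3, Malat1, Mirg, Rian (38, 26 and 57) and Miat (72, 42 and 91). Meg3, Rian and Mirg lie in a row in one imprinted locus, so they are not separate observations. Gas5 (352, 325 and 381) and Peg13 (205, 199 and 183) differed little between libraries.

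The glutamatergic list had a median departure of 0.28 in replicate 3, which was 0.13 without replicate 2, with 6 of 11 genes above 0, among them Camk2a, a kinase of excitatory synapses (88, 93 and 124). Most channel genes described also had a departure above 0 in replicate 3, and none reached 2-fold against the mean of the other 2 libraries. Of the 21 potassium channel genes, 15 had a departure above 0 (45.9% of all genes did), with a median of 0.15 that was 0.49 at a mean of at least 50. Kcna6, a relative of Kcna1, had 68, 88 and 148, whereas Kcnip3, an accessory subunit, had 16, 14 and 8. Of 18 sodium and calcium channel genes, 13 were above 0 with a median of 0.19, among them Cacna1e (38, 38 and 65) and Cacna2d2 (12, 10 and 21). Against 1 library alone, Kcna6 was at least 2-fold higher without replicate 2 and Cacna2d2 without replicate 1. Release genes varied less, with 14 of 25 above 0 and a median of 0.03, although Vamp2, the vesicle SNARE, had 208, 217 and 371.

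The 28 genes of the chaperone and ER stress list summed to 9816, 10073 and 13874, of which Hsp90ab1 was the main part. Hspa5, the ER chaperone BiP, had 622, 652 and 849, and Calr, its calcium-binding partner, had 672, 703 and 962. Ddit3, the stress transcription factor CHOP, was at least 2-fold higher in replicate 3 (22, 25 and 50), though not against replicate 2 alone, and Manf, an ER stress protein, was at least 2-fold lower (51, 55 and 25). Xbp1 (53, 48 and 31) was also lowest in replicate 3, so members of the list went both ways, 13 above 0 and 8 below.

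Lists on the low side of replicate 3 held genes of immunity, cortex, antioxidant defence and respiration. Over all genes 53.7% were below 0 in replicate 3. Of 13 interferon and MHC class I genes 9 were below 0, with a median of -0.33 that was -0.17 without replicate 1, and B2m, the light chain of MHC class I, had 64, 51 and 34. The median of replicate 1 was 0.24 there. Of 15 cortical layer genes 12 were below 0 (median -0.29), of 18 antioxidant genes 13 (-0.26, but -0.05 at a mean of at least 50), of 17 progenitor genes 14 (-0.15) and of 53 oxidative phosphorylation genes 36 (-0.14). The antioxidant list as a sum was not lower in replicate 3 (2336, 2328 and 2389). Examples were the netrin receptor Unc5d (41, 38 and 24), the peroxiredoxin Prdx1 (205, 181 and 110), the fatty acid-binding protein Fabp7 of radial glia (635, 471 and 301), Hopx (78, 54 and 26) and the complex I gene Ndufa7 (129, 133 and 75). Medians of replicate 3 were also below that of all genes in the GABAergic (-0.18), hippocampal (-0.19), reference gene (-0.22), activity-regulated (-0.23) and cell-cycle (-0.24) lists. The last was 0.29 at a mean of at least 50, which only Top2a (41, 49 and 60) and Ccnd2 reached. Without replicate 1 the medians of replicate 3 were -0.10 for activity-regulated and -0.14 for cell-cycle genes. Without replicate 2 they were -0.10 for hippocampal and -0.37 for reference genes. Replicate 1 itself had medians of 0.30 for reference, 0.21 for cortical layer, 0.19 for antioxidant and 0.18 for cell-cycle genes. Its medians were 0.14 for activity-regulated genes and at most 0.09 for progenitor, oxidative phosphorylation, GABAergic and hippocampal genes. Within respiration Ndufa5 went the other way, with 217, 206 and 390.

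Other lists were split. Of 77 ribosomal protein genes 36 were above 0 in replicate 3 and 41 below, from Rpl36 (117, 130 and 191) to Rps27l (46, 42 and 20). Of 30 proteasome and ubiquitin genes 14 were above and 16 below, from Psmc1 (429, 519 and 810) to Psma5 (44, 40 and 22). The translation list ran from Eef1d (85, 84 and 148) to the helicase genes Eif4a1 (52, 58 and 29) and Eif4a2 (46, 46 and 24). In cholesterol synthesis Mvd (126, 125 and 221) and Insig1, a sterol-responsive regulator (47, 28 and 14), lay at opposite ends. The astrocyte sum differed little, yet Ndrg2 (187, 188 and 279) was highest and Cst3 (297, 263 and 177) lowest in replicate 3.

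**Figure D5:**
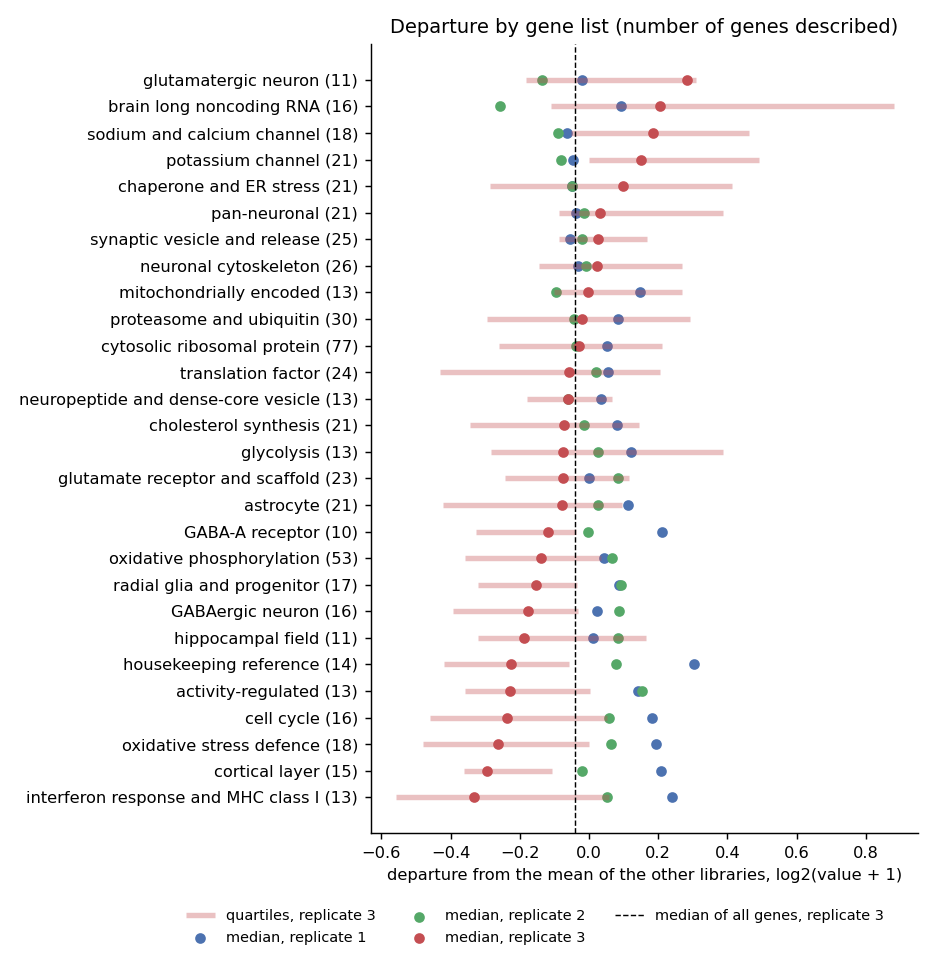
Median departure of each sgLacZ library on the log2(value + 1) scale (x) for the gene lists with at least 10 genes described (y, number of genes in parentheses), with bars for the quartiles of replicate 3 and a dashed line at its median over all genes, -0.04. Glutamatergic, noncoding and channel lists lie right of the line in replicate 3, and interferon, cortical layer and antioxidant lists lie left of it.

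Gene properties went along with the departure only weakly. The median departure of replicate 3 was -0.10 in the fifth of genes with the shortest coding sequence and 0.08 in the fifth with the longest, and Spearman's rho with coding length was 0.16 across 7364 genes of 1 set of libraries. With the number of exons it was 0.14, with level 0.13 and with GC content 0.07. Such weak relations were not particular to replicate 3. In replicate 1 rho was -0.14 with coding length, -0.12 with exons, -0.16 with level and -0.11 with GC content. In replicate 2 these were -0.07, -0.06, -0.03 and 0.03. The departures of 1 gene in the 3 libraries sum to 0, so the values of the libraries are not independent of each other. Medians by chromosome lay between -0.11 and 0.02 over 20 chromosomes. RNA integrity and reads per library were not given per sample in the sources used here, and their part in the departure of replicate 3 was not tested.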

How the data were processed

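The 3 sgLacZ libraries were made from polyA RNA with the QuantSeq 3' FWD kit. The authors deposited 1 file per library, with a symbol and a whole number, here given the unit score. Its totals lie just under 1000000 in each library, and it was read as a rounded per-million value. No source used here states this, the depth is unknown, and no intervals or detection limits could be given. The submitters' processing notes name STAR 2.7, featureCounts, DESeq2 and mm10, and the study's methods name Bowtie2 and NCBI37/mm9 for cultured neurons. The files hold no coordinates. Positions printed here are those of NCBIM37 with GENCODE vM1, in which 91.4% of the described symbols were found.

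Values were used as deposited (Python 3.11.15, pandas 2.3.3, numpy 2.4.6), for genes with a mean of at least 10, with a pseudocount of 1 on the log2 scale. Transcript ends were searched with blastn 2.17.0. The code was checked on simulated data. Members, gene lists, and the question about replicate 3 were chosen with earlier results of these data known. Genes were named by rule: the 15 highest means, the 10 highest and 10 lowest departures of replicate 3 where replicates 1 and 2 differed by less than 0.6 (3 each for replicates 1 and 2), the 5 highest and 5 lowest CVs at a mean of at least 100, up to 4 highest members and 2 at either end of each of 33 lists with members under 10, Kcna1 and Gm42418. Other genes were named after their values were seen. Some genes that the rule names are not reported here. Alternatives were other scalings, minimum means of 1 and 50, pseudocounts of 0.1 and 5 and each library left out. The other group of the series was not used here.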

Additional observations from a re-analysis of the deposited data

How the results depend on the processing

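No paired analysis was possible because a single group was described. A minimum mean of 1 raised the genes described to 13659, the median CV to 20.5% and the genes with a CV over 50% to 1609. It raised the genes 2-fold higher and lower to 582 and 408 in replicate 1, 353 and 569 in replicate 2, and 516 and 524 in replicate 3, with SDs of the departure of 0.49, 0.48 and 0.53. A minimum mean of 50 left 3333 genes, of which 1295 had a CV under 10% and 13 over 50%. It left 2 higher and 1 lower in replicate 1, 0 and 2 in replicate 2, and 24 and 11 in replicate 3, with an SD of 0.21 in replicate 2. With Gm42418 left out and the rest rescaled, 51 genes were higher and 25 lower in replicate 1, 11 were higher in replicate 2 and 164 lower in replicate 3. Median-of-ratios factors gave 20 higher in replicate 1. A pseudocount of 0.1 gave 25 lower in replicate 1 and 10 higher in replicate 2. A pseudocount of 5 gave 5 higher and 0 lower in replicate 1, 0 and 6 in replicate 2, and 38 and 31 in replicate 3. With Gm42418 kept, the 100 highest genes held 38.5%. The minimum means of 1 and 50 included more and fewer low genes. The cause of the changes was not tested.

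With each library left out, the median CV ran from 8.84% (without replicate 3) to 15.3%, the genes under 10% from 2819 to 4514 (without replicate 3) and those over 50% from 55 to 265. Against 1 other library, replicate 1 had 38 to 200 higher and 18 to 95 lower (SD 0.30 to 0.46), replicate 2 had 18 to 103 and 38 to 107 (SD 0.30 to 0.42), and replicate 3 had 95 to 107 and 103 to 200 (SD 0.42 to 0.46). The higher ends of replicates 1 and 2 were those against replicate 3, and replicate 3 had 107 higher without replicate 1 and 200 lower without replicate 2. Medians of lists in replicate 3 changed sign in 3 of 31 lists under median-of-ratios factors (mitochondrial, ribosomal protein and proteasome), 5 of 30 at a mean of 50, 1 of 31 at a mean of 1, 3 of 31 without replicate 1 and 0 of 31 without replicate 2.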
